A study of Sus scrofa with 48 samples.

Results

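The liver of growing pigs was examined here for 10 genes that handle triglyceride: DGAT1, DGAT2, PLIN2, PLIN3, PNPLA2, LIPE, CIDEC, CD36, LPL and MTTP. A liver cell stores fatty acids as triglyceride in lipid droplets, particles with an oily core and a coat of proteins. DGAT enzymes complete the synthesis of triglyceride, perilipins and CIDEC sit on the droplet surface, lipases release fatty acids from it, and microsomal transfer protein loads triglyceride onto apolipoprotein B so that it can leave the cell in very-low-density lipoprotein. Fatty acids also come in from the blood, with the help of CD36 at the cell surface and of LPL, which cuts triglyceride in circulating lipoproteins.

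The members were all array probes that carry 1 of the 10 gene names or a transcript accession of 1 of them. There were 31 such probes among 60305 non-control probes, and 24 of them passed the filter on dim probes, which asked for a signal well above background on at least 12 of the 48 arrays. All 10 genes kept at least 1 tested probe. The 7 probes that did not pass were 6 of the 7 LPL probes and 1 of the 5 CD36 probes.

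The 48 pigs were Large White castrated males from 2 lines that had been selected in opposite directions for residual feed intake (RFI) over 8 generations. RFI is the feed a pig eats beyond what its growth and fatness predict, so that low RFI pigs are the more efficient ones. Within each line, 12 pigs received a high-fat high-fiber (HF) diet and 12 a low-fat low-fiber (LF) diet from 74 d of age. All pigs ate ad libitum and were sampled at one common age, 2 h after a meal. The 4 groups were thus low RFI HF, low RFI LF, high RFI HF and high RFI LF. Fat and fiber changed together, so their effects cannot be told apart, and each line stands for a single selection experiment. The labels do not say how the pigs of a line were related.

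Each liver was hybridised to 1 array with a single dye (Cy3). The level of a probe is given as log2 intensity relative to the median of the tested probes on that array, and levels of different probes are not set against each other. Arrays had 65.8% to 77.2% of probes well above background and median intensities of 53.04 to 126.4. The lowest correlation between any 2 arrays was 0.974, and no spot was saturated. The 6 slides held 2 pigs of each group and the 2 scan days 6 pigs of each group. Of the 5 tested hepatocyte markers, 5 were well above background on all 48 arrays, with a mean level of 9.91 to 10.5 over the pigs. In whole liver, fewer cells of a type and less RNA per cell cannot be told apart.

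The short DNA strands on the array that report PNPLA2 and CIDEC carry most of the results below, and 2 of the DGAT2 strands overlap. Each is 60 bases long. Bases 1 to 30 are shown for PNPLA2 and CIDEC, as the scanner files spell them. For DGAT2 the 30 bases around the overlap are shown, and capitals mark the 27 bases that both strands hold, so that these 2 probes read partly the same stretch of transcript.
PNPLA2 O9017: agaatgtgtgtgaagagttatttatttttg
PNPLA2 A_72_P178071: ataaaggagcagacaggcagtatctgccag
PNPLA2 A_72_P076816: tggacggtggcatctcagacaacctgcctc
CIDEC A_72_P015096: gaattgccaatccactagggtatgctatta
CIDEC A_72_P223532: tgtctaaagatactgcagtgaaagaatagc
CIDEC O9141: tgtaaccttcaacctgtacaaggtgaaccc
DGAT2 A_72_P288804: TTCAAAGAATGGGAGTGGCAATGCCATcat
DGAT2 O8336: gctTTCAAAGAATGGGAGTGGCAATGCCAT

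None of the CIDEC or PNPLA2 pairs shared more than 6 bases in a row on the same strand. The 3 CIDEC probes nevertheless moved together over the pigs, with correlations of 0.95 to 0.96 once group means were removed. Of the PNPLA2 probes, O9017 and A_72_P178071 moved together (r = 0.83), whereas A_72_P076816 followed them only weakly (r = 0.27 with each). The probe O9017 had 38.3% G and C bases and the other PNPLA2 probes had 55%.

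PNPLA2 was the one gene of the 10 with a diet difference past the cut-offs of the study's methods, an unadjusted P under 0.01 and a fold change (FC) over 1.1. PNPLA2 encodes adipose triglyceride lipase, which takes the first fatty acid off stored triglyceride. Its level was higher in pigs fed the HF diet on 2 of its 3 probes, by 1.25-fold on O9017 and 1.29-fold on A_72_P178071. The third probe showed a log2 difference of -0.01.

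On PNPLA2 probe O9017, low RFI pigs fed the LF diet had levels from 3.24 to 4.03 with a median of 3.77. Low RFI pigs fed the HF diet ran from 3.67 to 4.64 with a median of 4.06. High RFI pigs had a median of 3.79 on the LF diet (3.28 to 4.28) and of 4.10 on the HF diet (3.21 to 4.60). The diets overlapped, but 20 of 24 pigs fed HF lay above the LF median and 7 lay above every pig fed LF. The lowest of all 48 values also belonged to a pig fed HF. The diet difference was 0.33 on the log2 scale, with a 95% interval of 0.14 to 0.51 and P = 0.00097 by limma. After Benjamini-Hochberg (BH) adjustment over all 45236 tested probes, the limma P was 0.087, so PNPLA2 did not pass at 5%.

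The difference on O9017 was positive on each of the 6 slides, from 0.12 to 0.51. It was 0.31 on the first scan day (limma P = 0.0095) and 0.35 on the second (limma P = 0.028, not past the cut-offs). Within the low RFI line it was 0.37 and within the high RFI line 0.28 (limma P = 0.0072 and 0.035), and the interaction, the difference between these 2, was 0.08 with a 95% interval of -0.29 to 0.46 (limma P = 0.65).

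**Figure D1:**
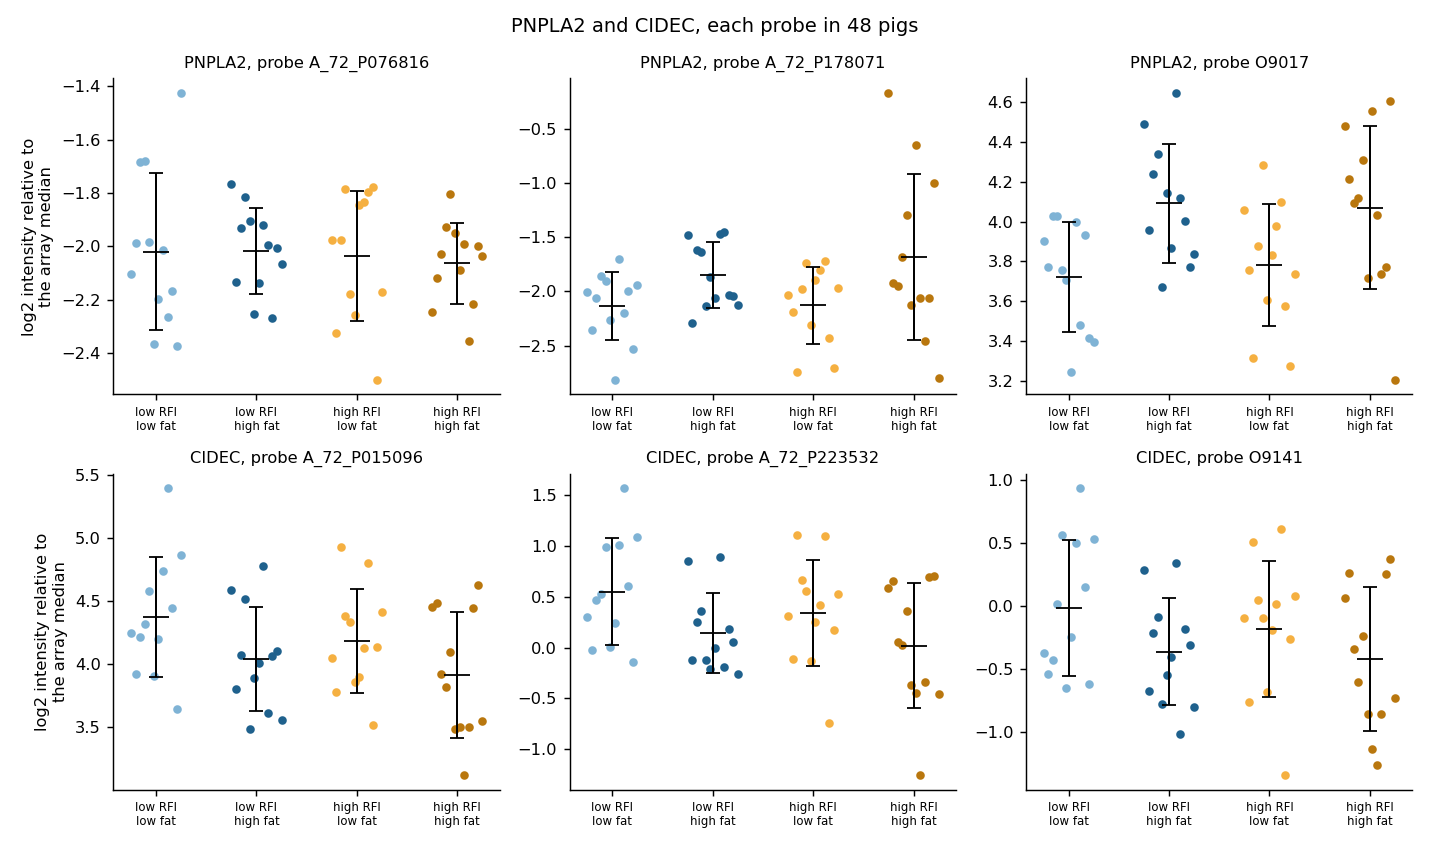
Level of the 3 PNPLA2 probes (top) and the 3 CIDEC probes (bottom) in 48 pigs, by line and diet. The y axis is log2 intensity relative to the array median, points are pigs, and black marks are the mean and SD of 12 pigs; on O9017 both HF groups sit higher than both LF groups, and on A_72_P178071 the mean of the high RFI HF group rests on few pigs.

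PNPLA2 probe A_72_P178071 had a similar mean difference with another distribution. The diet difference was 0.37 (95% interval 0.10 to 0.64, limma P = 0.0089, adjusted P = 0.19). The medians were close, -1.94 on HF and -2.02 on LF, and 13 of 24 pigs fed HF lay above the LF median. Of those 24 pigs, 10 lay above every pig fed LF. In the high RFI HF group the values ran from -2.80 to -0.17 with an SD of 0.77, against 0.30 to 0.35 in the other 3 groups. The call of this probe was lost under several other ways of processing the intensities, whereas the call of O9017 was lost only on the second scan day alone.

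CIDEC, a droplet protein that lets small droplets pass their content to larger ones, had lower levels in pigs fed HF on all 3 probes, but none passed the cut-offs. On A_72_P015096 the low RFI pigs had a median of 4.28 on LF (3.65 to 5.39) and of 4.04 on HF (3.49 to 4.78). The high RFI pigs had a median of 4.13 on LF (3.52 to 4.92) and of 3.87 on HF (3.12 to 4.62). The 4 groups overlapped widely, and 17 of 24 pigs fed HF lay below the LF median. The log2 differences were -0.30, -0.37 and -0.30 on the 3 probes, with limma P of 0.023, 0.016 and 0.050 and adjusted P of 0.26, 0.23 and 0.35. On A_72_P015096 the 95% interval ran from -0.56 to -0.04. The difference was negative on 5 of 6 slides, and was -0.16 on the first scan day and -0.44 on the second.

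Over all 10 genes, 2 of 24 member probes passed the cut-offs for diet, both of them PNPLA2 and both higher on HF. Among all tested probes 4.61% passed, and 2.07% passed with a higher level on HF. With BH at 5%, 0 of 24 member probes passed, against 0.455% of all tested probes, and 6 of 24 had an unadjusted limma P under 0.05, where 14.4% of all tested probes did. The unmoderated ANOVA gave 1 call by the cut-offs. With the brightest tested probe of each gene, 1 of 10 genes passed against 4.19% of 12433 named genes. Of these 10 probes, 9 had a negative diet difference, as did 6920 of the 12433 named genes. The median of the 10 was -0.09, against -0.02 for all named genes. Several of the 10 genes varied together over the pigs (below), so they do not count as separate observations.

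**Figure D2:**
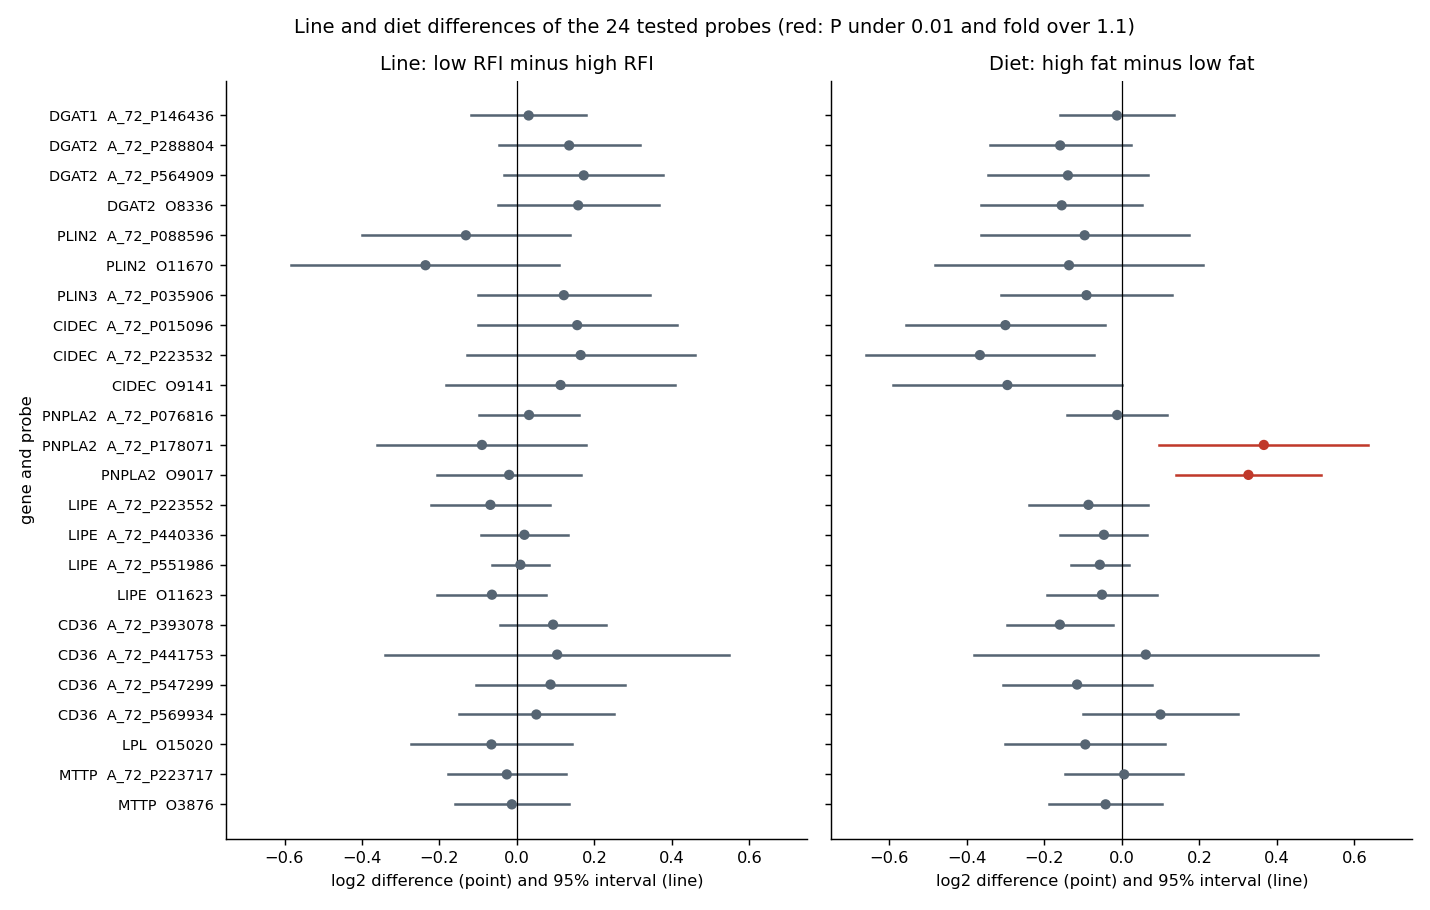
Log2 difference of each of the 24 tested probes between lines (left) and between diets (right); points are the fitted differences and lines their 95% intervals from limma over 48 pigs. Only PNPLA2 probes O9017 and A_72_P178071 are past the cut-offs, both for diet, at 0.33 and 0.37.

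The 2 enzymes that finish triglyceride synthesis did not pass for diet. DGAT1 is the isoform tied to fatty acids taken up from outside and DGAT2 the one tied to newly made fatty acids in the liver. DGAT1, measured by 1 probe, ranged from 2.21 to 3.18 over the 48 pigs. Its diet difference was -0.01 (95% interval -0.16 to 0.14). DGAT2 ranged from 3.36 to 4.53 on A_72_P288804, and its diet difference was -0.16 on this probe (-0.34 to 0.02, limma P = 0.084). The other DGAT2 probes gave -0.14 and -0.16. The 3 DGAT2 probes agreed over the pigs with r of 0.94 to 0.99, and 17 of 24 pigs fed HF lay below the LF median on A_72_P288804.

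Of the other droplet coat proteins, PLIN2 is the main perilipin of the liver cell and PLIN3 a perilipin that moves from the cytosol onto new droplets. PLIN2 ranged from -1.38 to 0.88 and had a diet difference of -0.10 (-0.36 to 0.17). PLIN3 ranged from 0.79 to 2.57 and had a diet difference of -0.09 (-0.31 to 0.13). The second PLIN2 probe was well above background on 20 of 48 arrays and gave -0.14. Its correlation with the first was 0.27, so the 2 PLIN2 probes followed each other weakly.

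LIPE encodes hormone-sensitive lipase, which acts mainly on diacylglycerol after PNPLA2. Its 4 probes had diet differences of -0.05 to -0.09, and the narrowest interval of the 10 genes, -0.13 to 0.02, was that of LIPE probe A_72_P551986. That probe ranged only from 0.41 to 0.94 over the 48 pigs. Probes A_72_P223552 and O11623 shared 58 of their 60 bases and correlated with r = 0.82. The correlation of A_72_P551986 with these was -0.21 and -0.07, so that not all LIPE probes followed each other.

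CD36, the fatty acid translocase, had 4 tested probes that also disagreed. The brightest, A_72_P547299, ranged from 0.55 to 2.06 and had a diet difference of -0.12 (-0.31 to 0.08). Probe A_72_P393078 gave -0.16 (limma P = 0.023, adjusted P = 0.26) and correlated with the brightest one (r = 0.61). Probe A_72_P569934 gave 0.10 and correlated with neither (r = -0.16 and -0.01). The remaining one, A_72_P441753, was well above background on 19 of 48 arrays, gave 0.06 and correlated with A_72_P569934 (r = 0.55). The 4 probes thus fell into 2 pairs that did not follow each other.

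LPL was near the lower end of what the array could measure. Of its 7 probes, only O15020 was well above background on all 48 arrays, with a median intensity of 27.3, and the other 6 were so on 0 to 3 arrays, with median intensities of 2.86 to 3.44. On O15020 the diet difference was -0.09 (-0.30 to 0.11). MTTP, the export gene, was bright on both probes, with median intensities of 24371 and 17777. Its level ranged from 6.51 to 7.47 on O3876 and its diet difference was -0.04 (-0.19 to 0.10). The second MTTP probe gave 0.01 and correlated with the first at r = 0.98.

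**Figure D3:**
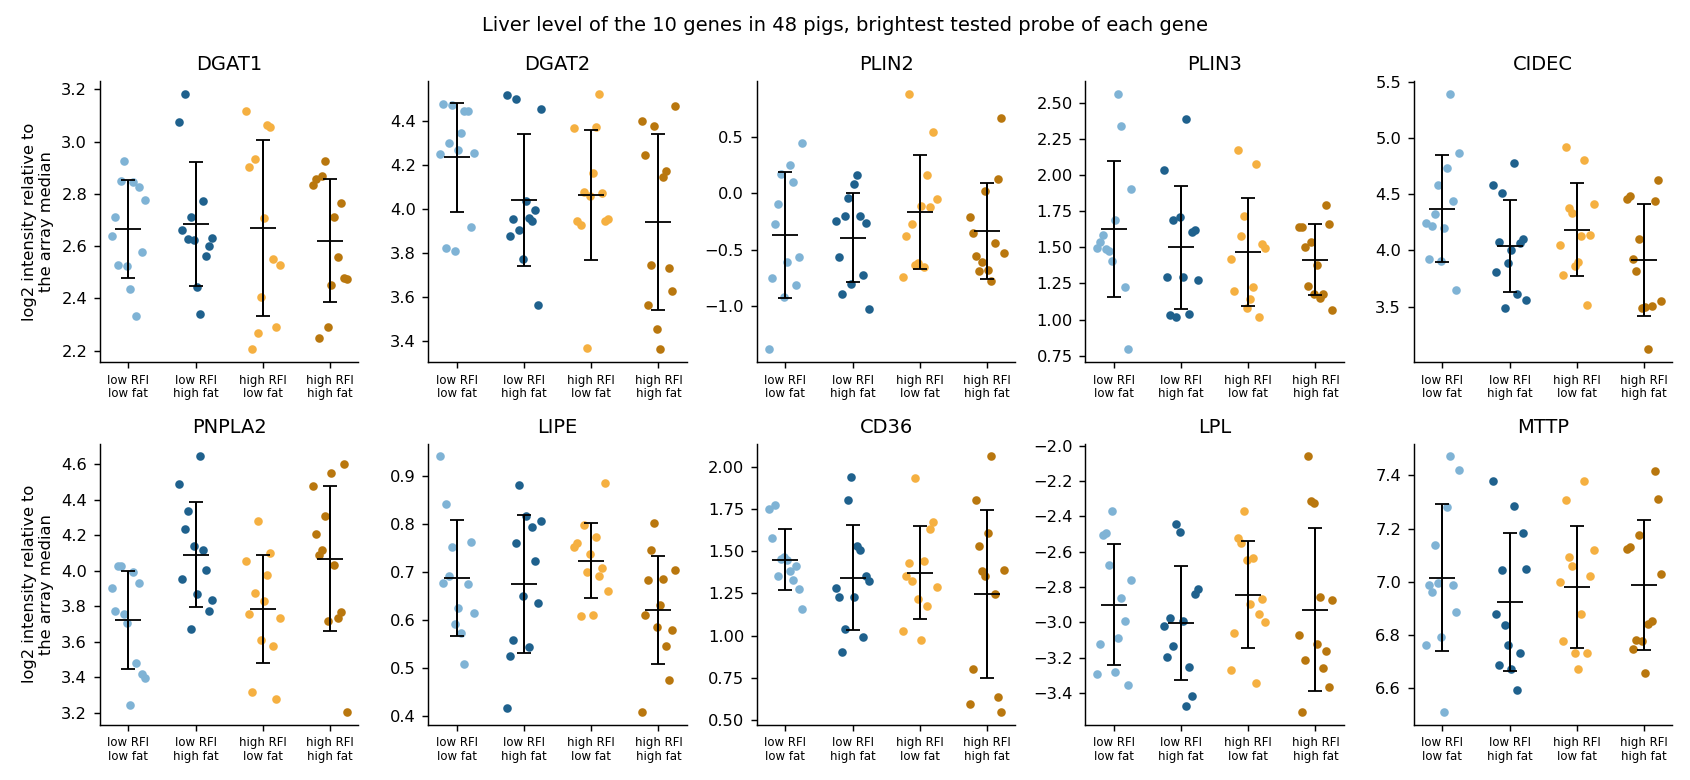
Level of the brightest tested probe of each of the 10 genes in 48 pigs, by line and diet; the y axis is log2 intensity relative to the array median on a scale of its own for each gene, points are pigs and black marks the mean and SD of 12 pigs. PNPLA2 is the gene whose 2 HF groups both sit above the 2 LF groups, and the spread is widest for CIDEC and PLIN2 (SD 0.47 over all pigs).

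The lines were compared to ask whether selection for RFI went with the level of these genes. None of the 24 member probes passed the cut-offs, and 0 passed BH at 5%. None had an unadjusted limma P under 0.05, where 14.7% of all tested probes did, and the unmoderated ANOVA also gave 0 calls by the cut-offs. Among all tested probes, 6.91% passed the cut-offs and 3.93% passed BH at 5%. The smallest limma P was 0.099, for DGAT2 probe A_72_P564909, whose level was 0.17 higher in the low RFI line (-0.03 to 0.38). The DGAT2 probe A_72_P288804 was 0.13 higher, and 12 of 24 low RFI pigs lay above the high RFI median. PNPLA2 differed by -0.02 on O9017 (-0.21 to 0.17), with 12 of 24 low RFI pigs above the high RFI median. CIDEC differed by 0.16 (-0.10 to 0.41), PLIN3 by 0.12 (-0.10 to 0.34), PLIN2 by -0.13 (-0.40 to 0.14), CD36 by 0.09 (-0.11 to 0.28) and LPL by -0.07 (-0.27 to 0.14). DGAT1 differed by 0.03 (-0.12 to 0.18), LIPE by 0.01 (-0.07 to 0.08) and MTTP by -0.01 (-0.16 to 0.13). These intervals cover differences of up to 0.41 on the log2 scale for the brightest probes. The median line difference of the 10 genes was 0.02, and that of all named genes 0.01.

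No member probe passed for the line by diet interaction, where 0.376% of all tested probes passed the cut-offs and 0% passed BH at 5% (1071 of 45236 had an unadjusted limma P under 0.05). The smallest limma P of the member probes was 0.23, for LIPE. The 95% intervals of the interaction reached 0.15 to 0.54 either side of the estimate for the brightest probes, so that line differences of unlike size on the 2 diets remain possible for each of the 10 genes.

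Some of the 10 genes varied together over the pigs. The mean of each line and diet group was subtracted and the 45 pairs of brightest probes were compared over 48 pigs with a permutation test. After BH adjustment over the 45 pairs, 14 passed at 5%, 10 with a positive and 4 with a negative r. All 14 kept their sign on both scan days. The same test was not run on pairs of other genes, so no share stands beside this count. Members also followed many other genes: of 10425 named genes, 15.6% had r beyond 0.5 in either direction with MTTP and 13.6% with CIDEC.

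The closest relations were among the droplet coat genes and MTTP. PLIN3 and CIDEC correlated with r = 0.83 (rho = 0.80, both adjusted permutation P = 0.00015, from an unadjusted P of 1e-05, the smallest these permutations can give). CIDEC and MTTP had r = 0.77 (rho = 0.72) and PLIN3 and MTTP r = 0.72 (rho = 0.70), with the same adjusted permutation P. PLIN2 joined them with r = 0.55 to CIDEC, 0.55 to MTTP and 0.49 to PLIN3 (rho = 0.50, 0.49 and 0.43, largest adjusted permutation P 0.0027 for r and 0.015 for rho). Within a line or a diet, the r of these 6 pairs lay between 0.37 (PLIN2 and PLIN3 in pigs fed HF) and 0.89 (PLIN3 and CIDEC in the high RFI line). Without the 2 pigs farthest from the median, r was 0.84 for PLIN3 and CIDEC, 0.73 for CIDEC and MTTP and 0.43 to 0.50 for the PLIN2 pairs. On the first scan day r was 0.80 and on the second 0.84 for PLIN3 and CIDEC, and 0.76 and 0.78 for CIDEC and MTTP.

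**Figure D4:**
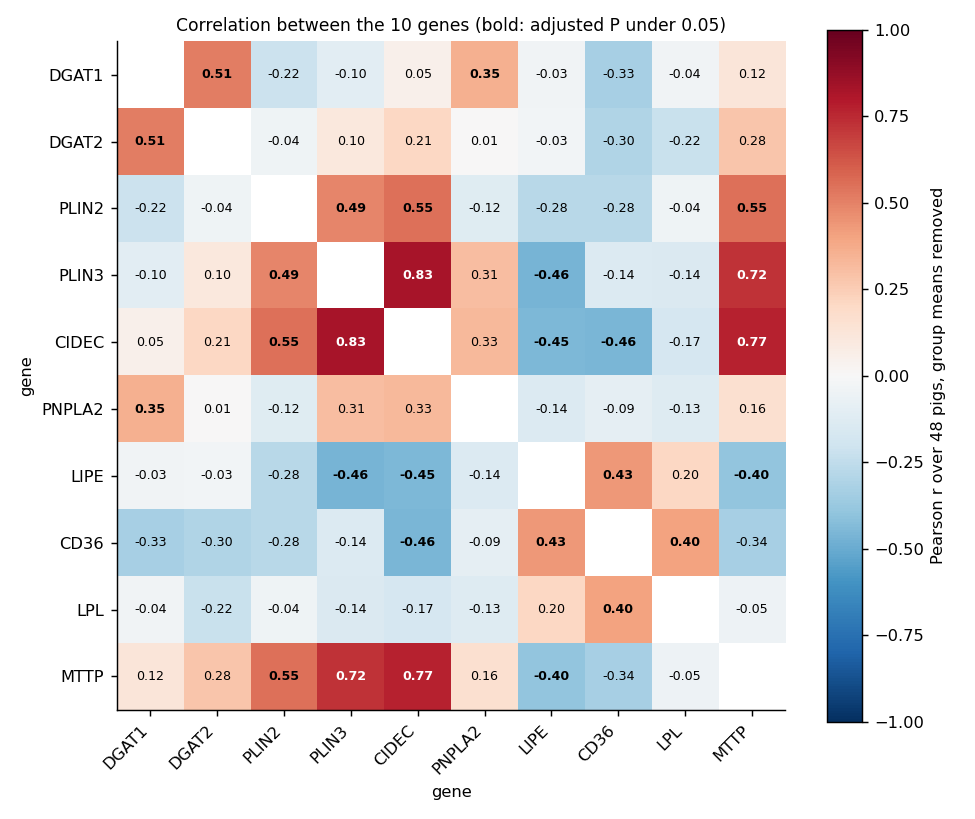
Pearson r between the brightest probes of the 10 genes over 48 pigs, after subtraction of line and diet group means; colour runs from blue (-1) to red (1) and bold marks an adjusted permutation P under 0.05. PLIN2, PLIN3, CIDEC and MTTP form a positive block with r of 0.49 to 0.83.

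The 2 DGAT genes also rose and fell together (r = 0.51, rho = 0.52, adjusted permutation P = 0.0021 and 0.0026). DGAT1 correlated with PNPLA2 (r = 0.35, rho = 0.37, adjusted permutation P = 0.045 and 0.037). CD36 had positive relations to LIPE (r = 0.43) and LPL (r = 0.40), with rho of 0.42 and 0.39 and adjusted permutation P of r 0.0094 and 0.017. The pair of LIPE and LPL did not pass (r = 0.20, adjusted permutation P = 0.29). LIPE had negative relations to PLIN3, CIDEC and MTTP (r = -0.46, -0.45 and -0.40, rho = -0.41, -0.41 and -0.36) and CD36 to CIDEC (r = -0.46, rho = -0.43), with adjusted permutation P of at most 0.019 for r and 0.041 for rho. Several of these relations depended on the probe. When all tested probes of a gene were averaged first, r was 0.16 for CIDEC and CD36, -0.01 for CIDEC and LIPE, -0.27 for PLIN3 and LIPE and -0.16 for LIPE and MTTP. Of the positive ones, CD36 and LPL came to 0.17 and LIPE and CD36 to 0.39, and PLIN3 and CIDEC to 0.79.

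Array brightness moved with some members. Each level already had the median of its array subtracted. For a probe whose raw signal does not scale with brightness, this step alone gives a negative r. The part of this step in the values below was not tested. CD36, LPL and LIPE were lower on arrays with a higher median intensity (r = -0.64, -0.48 and -0.46, rho = -0.64, -0.45 and -0.45, adjusted permutation P at most 0.010 for r and 0.015 for rho over 120 relations of this kind). The relation of LPL held on the first scan day (r = -0.69) and not on the second (r = 0.06). For PLIN2, PLIN3, CIDEC and MTTP, r with array intensity was 0.09 to 0.25. For DGAT1 and DGAT2, which correlated with each other, it was 0.36 and 0.35 (adjusted permutation P = 0.066 and 0.069). On the first scan day these 2 values were 0.47 and 0.54, and on the second 0.08 and -0.10. With array median intensity and the share of probes above background removed, r was 0.85 for PLIN3 and CIDEC and 0.75 for CIDEC and MTTP, but 0.16 for CD36 and LPL and 0.22 for LIPE and CD36.

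Markers of cell types moved with the members as well. Of the 120 relations, 20 passed 5% after adjustment for r, 3 of them with array intensity, 14 with the mean of a marker list and 3 with LEP or PCK1 taken alone. The mean level of 6 adipocyte markers correlated with CIDEC (r = 0.55), PLIN3 (0.50), MTTP (0.48) and PLIN2 (0.46), with rho of 0.46 to 0.56 and adjusted permutation P of at most 0.0093 for r and 0.013 for rho. Of these 6 markers, PLIN1, FABP4 and CIDEA are lipid genes that liver cells can express and PCK1 is a liver gene too. ADIPOQ, a defining one, was well above background on 47 arrays at a level of -3.05, and its r with the same 4 genes was 0.01 to 0.25. LEP, the other defining one, was well above background on 48 arrays and its r with them was -0.35 to -0.03. None of these 8 values passed 5% after adjustment, but LEP did with LIPE (r = 0.49, rho = 0.43, adjusted permutation P = 0.0072 and 0.022). LIPE had r = 0.01 with ADIPOQ and -0.25 with the adipocyte marker mean, neither past 5%. PLIN2 correlated with 7 Kupffer cell and macrophage markers (r = 0.52, rho = 0.50, adjusted permutation P = 0.0034 and 0.0055), and CD36 and LIPE did so negatively (r = -0.41 and -0.39, rho = -0.42 and -0.43, adjusted permutation P of r 0.029 and 0.041 and of rho 0.027 and 0.022). The mean of 5 hepatocyte markers correlated with CD36 (r = 0.69, rho = 0.71, adjusted permutation P = 0.00040 and 0.00060) and negatively with CIDEC (r = -0.45, rho = -0.42, adjusted permutation P = 0.012 and 0.025). It also correlated with LIPE (r = 0.49, rho = 0.51, adjusted permutation P = 0.0072 and 0.0044) and negatively with MTTP (r = -0.40, rho = -0.40, adjusted permutation P = 0.037 and 0.031). PNPLA2 was lower in pigs with a higher mean of 3 T cell markers (r = -0.40, rho = -0.48, adjusted permutation P = 0.037 and 0.0087). The mean of 7 stellate cell and fibroblast markers had r = -0.42 with LPL (rho = -0.38, adjusted permutation P = 0.021 and 0.047) and r = -0.38 with MTTP (rho = -0.34, adjusted permutation P = 0.047 and 0.088). PLIN3 correlated with PCK1 taken by itself (r = 0.38, rho = 0.43, adjusted permutation P = 0.047 and 0.022). Each of these kept its sign on both scan days, but on one of them r was -0.13 for LPL and the stellate cell markers, -0.21 for CIDEC and the hepatocyte markers, -0.22 for LIPE and the Kupffer cell markers and 0.23 for PLIN3 and PCK1. Without the 2 pigs farthest from the median of the marker measure, r was -0.49 to -0.31 or 0.35 to 0.68 for these relations. Array brightness, with which CD36, LPL and LIPE also moved, was not removed from these relations. The part of the cell types or of brightness in the relations was not tested. Between diets, no tested marker of any of 7 cell types passed the cut-offs, where 4.19% of all named genes did. Several had an unadjusted limma P under 0.05, where 14.3% of all named genes did. Of these, HBB (-0.57, limma P = 0.011) and VWF (-0.33, limma P = 0.017) were lower on HF. So were ALB (-0.13, limma P = 0.034), CD68 (-0.16, limma P = 0.036), SERPINA1 (-0.09, limma P = 0.044) and ACTA2 (-0.27, limma P = 0.049). COL1A2 (0.23, limma P = 0.021), VSIG4 (0.18, limma P = 0.022) and COL3A1 (0.23, limma P = 0.022) were higher. The Kupffer cell markers CD68 and VSIG4 thus went opposite ways, as did the stellate cell markers ACTA2 and COL1A2. No other tested marker had such a P, and the adjusted P of those named were 0.21 to 0.34. The adipocyte marker mean spanned -0.27 to 0.52 on HF and -0.38 to 0.62 on LF, and the hepatocyte marker mean 9.91 to 10.5 on HF and 10.03 to 10.5 on LF.

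The genes most like each member over the 48 pigs, after removal of group means, were taken from 10425 named genes with 1 probe each, as a description. For MTTP they were RAB2A (r = 0.93), TSPAN13 (0.91) and SEC23A (0.91). For CIDEC they were ARF4 (0.88), TSPAN13 (0.88) and ECE2 (0.87), and for PLIN3 they were PMM1 (0.85), MKKS (0.84) and HMGB1 (0.84). PLIN2 had GPAT3, an enzyme of the first step of triglyceride synthesis, in first place (r = 0.87), ahead of SRSF3 (0.77) and DMTF1 (0.77). Many genes took part in these patterns. The share of the 10425 genes with r beyond 0.5 in either direction was 15.6% for MTTP, 13.6% for CIDEC and 10.5% for CD36. It was 8.10% for PLIN3 and 8.04% for PLIN2, but 1.91% for LIPE, 1.66% for PNPLA2 and 1.34% for DGAT1. For LPL it was 0.921% and for DGAT2 0.297%. PNPLA2 was closest to COG5 (0.74), HBP1 (0.73) and ATG4D (0.73), the last an autophagy protease. CD36 was closest to PARD3 (0.78), APOC2 (0.78) and SLC10A7 (0.78), and LPL to RAB44 (0.75), BRD1 (0.71) and LMNB2 (0.71). For LIPE the closest were OPRD1 (0.69), PDX1 (0.67) and ZSWIM3 (0.64), for DGAT1 they were AVPI1 (0.67), ZFAND2B (0.66) and ACAD9 (0.65), and for DGAT2 they were CHPF (0.62), LAMB2 (0.58) and ACOT6 (0.57).

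Around the 10 members, 65 further genes of triglyceride handling were listed by role, and 53 of them had a tested probe. For diet, 5 of 53 passed the cut-offs, 2 higher and 3 lower on HF, against 4.19% of all named genes. For line, 6 of 53 passed, 3 higher and 3 lower in the low RFI line, against 7.01%. The median differences were -0.06 for diet and 0.00 for line, beside -0.02 and 0.01 for all named genes.

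ANGPTL4, a secreted protein that inhibits LPL, was the pathway gene that passed BH at 5% for diet. Its level was lower on HF by 0.58 on the log2 scale (SE 0.14, limma P = 0.00014, adjusted P = 0.042). The means were 5.02 ± 0.50 on HF and 5.60 ± 0.47 on LF (SD, n = 24 each), and 21 of 24 pigs fed HF lay below the LF median. All 4 ANGPTL4 probes passed the cut-offs, with differences of -0.64 to -0.58, and the difference was negative on each of 6 slides. APOC2, the activator of LPL, was 0.16 lower on HF (SE 0.05, limma P = 0.0049, adjusted P = 0.15). LMF1, which helps LPL to fold, was lower in the low RFI line by 0.20 (SE 0.06, limma P = 0.0014, adjusted P = 0.041), and its other probe gave -0.22. These 3 genes act on LPL, whose own probe did not pass for either factor.

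ACSL3, an acyl-CoA synthetase of the endoplasmic reticulum and droplet surface, had the largest line difference of the 53. It was 0.76 lower in the low RFI line (SE 0.15, limma P = 4.7e-06, adjusted P = 0.00071), with means of 3.33 ± 0.60 and 4.09 ± 0.47 (SD, n = 24 each). Of 24 low RFI pigs, 23 lay below the high RFI median, and all 4 ACSL3 probes passed, at -0.88 to -0.53. ACSL1, the main acyl-CoA synthetase of liver, was 0.36 lower on HF (SE 0.13, limma P = 0.0081, adjusted P = 0.18), with 3 of its 4 probes past the cut-offs.

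Of the genes that help to move lipoproteins out of the endoplasmic reticulum, SAR1B and MIA3 were higher in the low RFI line. SAR1B, a small GTPase of transport vesicles, was higher by 0.27 (SE 0.07, limma P = 0.00050, adjusted P = 0.019), with 3 of 5 probes past the cut-offs. MIA3, a receptor for bulky cargo, was higher by 0.32 on its brightest probe (SE 0.10, limma P = 0.0013, adjusted P = 0.039), but its other probe gave -0.19, so MIA3 has no single direction here. LIPC, hepatic lipase, was 0.26 higher in the low RFI line (SE 0.08, limma P = 0.0024, adjusted P = 0.057).

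PPARA, the nuclear receptor that drives fatty acid oxidation in the liver, passed the cut-offs for both factors on its brightest probe. It was 0.40 higher on HF (limma P = 0.0036, adjusted P = 0.14) and 0.37 lower in the low RFI line (limma P = 0.0073, adjusted P = 0.12). The other 2 PPARA probes gave 0.02 and 0.29 for diet and 0.04 and -0.07 for line, and did not pass. The study's own array and qPCR values for PPARA in liver were slightly higher in the low RFI line. PPARA thus has no single direction for line. HSD17B11, a dehydrogenase found on droplets, was 0.15 higher on HF (SE 0.06, limma P = 0.0079, adjusted P = 0.18).

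**Figure D5:**
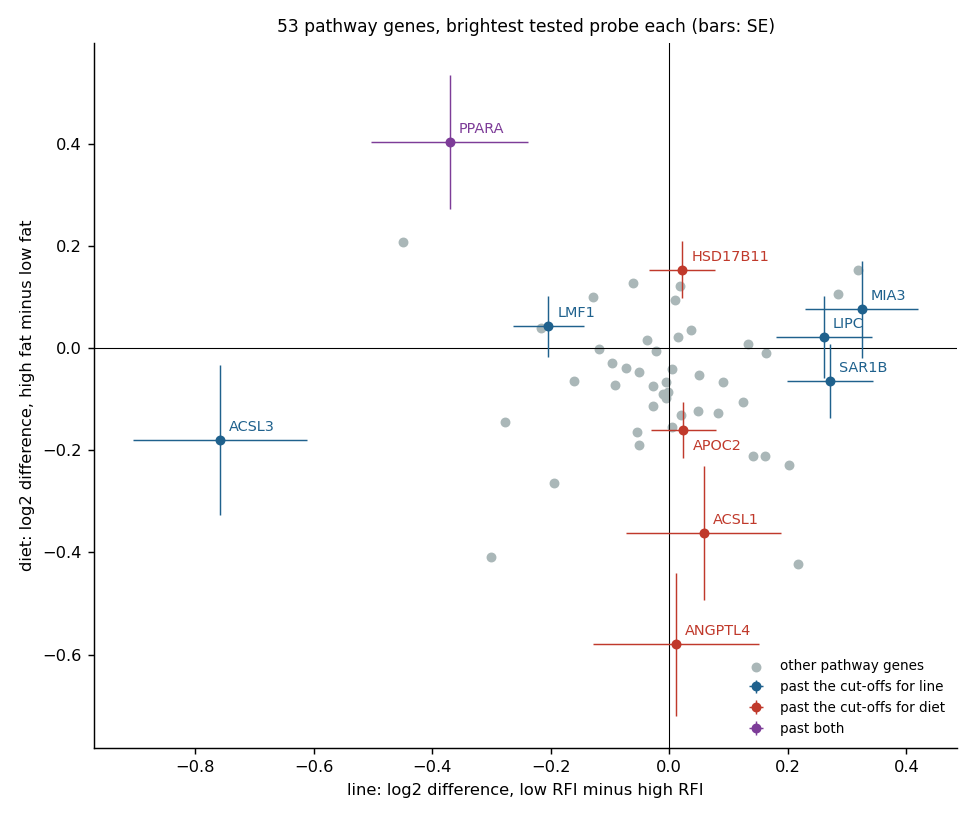
Line difference (x axis, low minus high RFI) against diet difference (y axis, HF minus LF) of 53 further genes of triglyceride handling, on the log2 scale; bars are standard errors and are drawn for genes past the cut-offs. ANGPTL4 is lowest on the diet axis at -0.58 and ACSL3 lowest on the line axis at -0.76.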

How the data were processed

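Liver RNA of 48 pigs was hybridised to a custom porcine Agilent array with 1 colour. Per the file headers, the deposited scanner files were made with Feature Extraction 10.7.3.1 and hold, for each spot, a linear intensity and flags. The authors normalised log2 values by the median of each array with R 2.10.0. The deposited table of log2 values covers 37379 probes, matched the log2 median intensity less a constant per array, and was used as an alternative. Its column medians are 0. Here, log2 of the background-subtracted intensity was taken, 483 outlier spots were left out, and each array was centred on its median over 45236 tested probes. The line, diet and interaction terms were fitted with limma 3.58.1 in R 4.3.3. Calls used P under 0.01 and FC over 1.1, with BH at 5% beside them. The brightest tested probe stood for a gene. Correlations used 100000 permutations, two-sided. Figures and tables were made in Python 3.11.15.

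The members, the pathway and marker lists and the tests were chosen with earlier results of these data known. The text names all members, the pathway genes past the cut-offs or BH at 5% on their brightest probe, and the 3 genes most like a member. A call on another probe alone was not counted, such as that of SREBF1 for diet (-0.65 on 1 of its 3 tested probes). Alternatives changed the background correction, centring, filter, outlier spots, slide or scan day block, scan day, interaction term and probe summary. The number of arrays limits the precision. Promoter sequence was not analysed here, and no coordinates are given because the scanner files name no genome build.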

Additional observations from a re-analysis of the deposited data

Results flagged for a closer look

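For 3 of 63 members and pathway genes the interaction had an unadjusted limma P under 0.05, where 2.02% of all 12433 named genes did. None passed after adjustment (adjusted P = 0.9999 for each), so a line difference of unlike size on the 2 diets is not established for them. FABP5, a fatty acid binding protein, had an interaction of -0.49 (limma P = 0.037), with line differences of -0.34 on HF and 0.15 on LF (SE 0.16 each). FABP4, the adipocyte fatty acid binding protein, had one of -0.77 (limma P = 0.043), with -0.44 on HF and 0.33 on LF (SE 0.26 each). ACSL3 had one of -0.60 (limma P = 0.048), with -1.06 on HF and -0.46 on LF (SE 0.21 each). No member was among them.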

How the results depend on the processing

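The count of 2 member probes past the cut-offs for diet fell to 1 with unmoderated ANOVA, with normexp, with median intensity without background subtraction, with slide as a block, on the first scan day alone and in the deposited log2 values, and to 0 on the second scan day alone. PNPLA2 was higher on HF under all 15 alternatives (0.23 to 0.35) and lost the call only on the second scan day. The count of 6 pathway genes for line fell to 3 and 2 on the first and second scan day alone. The count of 5 for diet fell to 3 with quantile normalization and with normexp, and to 1 on each scan day alone. Scan days alone hold 24 pigs each.

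Reversed directions, all in values that never passed, were the diet difference of DGAT1 (0.038 with normexp, 0.012 with median intensity without background subtraction, 0.075 on the first scan day alone, 0.0079 in the deposited log2 values) and line differences of DGAT1 (-0.040) and MTTP (0.013) on the second scan day alone, of PLIN3 (-0.011), CIDEC (-0.0040) and PNPLA2 (0.017) on the first, and of LIPE (-0.026) with the mean over probes. The correlation of CIDEC and CD36 reversed with the mean over probes (0.16). The cause was not tested. Correlations with array brightness removed and differences per slide were added after seeing the data. No paired analysis was possible because replicate numbers in the labels do not pair pigs across groups.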

Other observations

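PNPLA2 on probe O9017 correlated over the 48 pigs with PCK1, the enzyme that commits carbon to glucose synthesis and is induced by fasting, after line and diet means were removed (r = 0.60, rho = 0.57, adjusted permutation P = 0.00040 and 0.0020 over 120 relations). Without the 2 pigs farthest from the median of PCK1, r was 0.51, and it was 0.63 on the first scan day and 0.58 on the second. PCK1 stood in the adipocyte list and was singled out after its value was seen. CIDEC and PNPLA2 had r = 0.58 in pigs fed HF and 0.01 in pigs fed LF, and PLIN3 and PNPLA2 had 0.58 and 0.04. Because PLIN3 and CIDEC moved together (r = 0.83), these are not separate observations. Among the 45 pairs, others also differed between HF and LF, such as CIDEC and LPL (-0.42 and 0.15) and PLIN2 and PNPLA2 (0.16 and -0.40). The difference between diets in these correlations was not tested.

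Of the 6 dim LPL probes, some gave a signal on single arrays. On 42 of 48 arrays none was well above background, on 5 arrays 1 was, and on 1 array more than 1 was.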
